A study of Homo sapiens with 6 samples.

Results

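The genes described here are the enzymes that make cholesterol from acetyl-CoA, the SREBP transcription factors with the proteins that control them, and 4 genes of sterol uptake, transport and export. They were listed by name from the pathway, with earlier results of these data known, 30 in all, and comprise 7 genes of SREBP control, 8 of the mevalonate and isoprenoid steps, 11 of the squalene and sterol steps and the 4 transport genes. All 30 were matched among the 35810 genes of the files, and 29 of them were among the 13737 genes that had enough reads to be tested. The study asked what ARMC5, a substrate adaptor of the CUL3 ubiquitin ligase, does for RNA polymerase II, and its RNA-seq compared cells with and without knockdown of ARMC5. DLD-1 is a line of colorectal adenocarcinoma cells. All 6 libraries came from SPT5-AID cells, a DLD-1 derivative in which the elongation factor SPT5 carries an auxin-inducible degron, so the control group has this genotype too. The cells received a lentiviral shRNA against ARMC5 (shARMC5, n = 3) or a nontargeting shRNA (shNT, n = 3). No auxin is named in the labels of these libraries, and which of the study's ARMC5 constructs was used for them is not given in the sources used here. The study's methods speak of biological replicates, and the labels number them without saying that they are separate cultures, so the P values measure the spread between these libraries. In RNA from whole cultures, fewer cells of a kind and less RNA per cell cannot be told apart.

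Cholesterol is built from acetyl-CoA through mevalonate, isoprenoid diphosphates, squalene and a series of sterols, by enzymes that for the most part sit on the endoplasmic reticulum. The genes of these enzymes are known targets of the SREBP factors, which are made as membrane-bound precursors. When membrane cholesterol is low, SCAP escorts the precursors to the Golgi, where the proteases encoded by MBTPS1 and MBTPS2 release the part that enters the nucleus, and when it is high the INSIG proteins hold SCAP in the endoplasmic reticulum. SREBP2, from SREBF2, acts mainly on sterol genes and SREBP1, from SREBF1, mainly on fatty acid genes.

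The libraries held 26201112 to 40866478 reads on transcripts. Levels are given in CPM, the reads of a gene per 1000000 reads on genes after normalization with the TMM factors of edgeR, and a change is given as the log2 fold change of shARMC5 over shNT. A gene is called when its adjusted P value from edgeR's quasi-likelihood test (Benjamini-Hochberg over all 13737 genes) lies under 0.1, the threshold of the study's methods. ARMC5 itself (chromosome 16, 31458080 to 31467166 on the plus strand of GRCh38) was at 10.8, 11.97 and 12.9 CPM in shARMC5 and at 23.0, 25.9 and 26.7 CPM in shNT libraries, a log2 fold change of -1.09 (SE, the standard error, 0.08, adjusted P = 5.32e-07). Of 10 markers of colorectal epithelium 9 were in the files, CDX1 was at 0 in every library, and their summed level was 8762 to 8891 CPM in shARMC5 and 7780.1 to 8112 CPM in shNT libraries. That sum was higher in every shARMC5 library, while of the 7 markers tested 2 were called higher and 2 lower, and its part in the results below was not tested. Summed levels of fibroblast and endothelial markers lay between 0.723 and 1.42 CPM in every library, with COL3A1, LUM, CDH5 and KDR at 0.

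Changes in the sterol genes were few and small, and those called went down. SREBF2, ACAT2, FDFT1, SQLE and TM7SF2 were called lower in shARMC5 cells, 5 of the 29 tested members or 17.2%, where 3.3% of all tested genes were called lower. No member was called higher, where 4.44% of all tested genes were, and at an unadjusted P under 0.05 edgeR found 7 members, all lower (the 5 above, MBTPS1 and FDPS), 24.1% beside 18.1% of all tested genes in either direction. DESeq2's test called 4 members lower, beside 2.72% of all tested genes, and 0 higher, beside 3.66%. The count of 5 fell to 1 with a transcript length offset in edgeR, to 3 with that offset in DESeq2, and to 3 without shARMC5 replicate 2, shNT replicate 1 or shNT replicate 3. In 9 of the 29 members every shARMC5 library lay below every shNT library, 31.0% beside 10.9% of all tested genes, and in 0 of them above, beside 12.5% of all tested genes. The other 20 overlapped between the groups. The log2 fold change was negative in 21 members, 72.4% beside 50.5% of all tested genes, and the median over the 29 members was -0.04, beside -0.001 over all genes. Size was modest throughout: the mean CPM of the called members fell by 5.82% (ACAT2) to 17.8% (TM7SF2), and the 24 members that were not called had log2 fold changes from -0.10 to 0.07 with standard errors from 0.03 to 0.08.

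**Figure D1:**
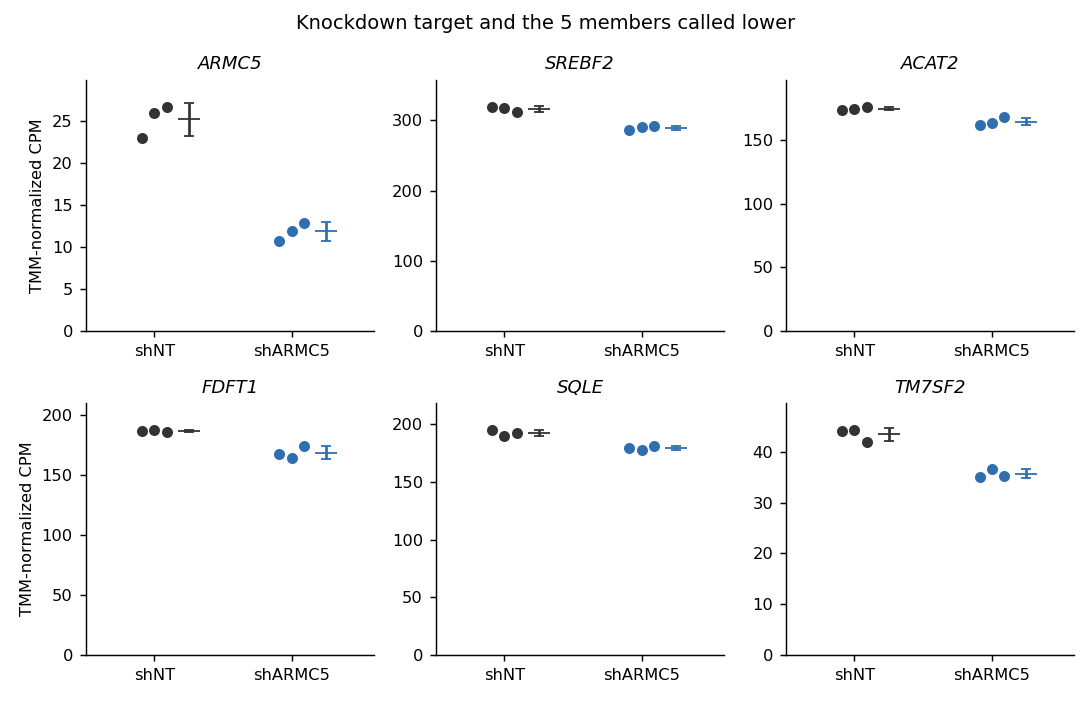
TMM-normalized CPM (y axis, from 0) of ARMC5 and of the 5 members called lower in each of 3 shNT (black) and 3 shARMC5 (blue) libraries, with the mean and SD beside the points. In each panel the 3 shARMC5 libraries sit below the 3 shNT libraries, by a ratio of means of 0.471 for ARMC5 and from 0.822 (TM7SF2) to 0.942 (ACAT2) for the members.

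Among the 7 genes of SREBP control, SREBF2 was called lower (14.3%, beside 3.3% of all tested genes) and the other 6 were not called. SREBF2, which encodes the precursor of SREBP2 (chromosome 22, 41833105 to 41907306 on the plus strand), was at 286, 291 and 291 CPM in shARMC5 libraries and at 319, 318 and 312 CPM in shNT libraries. Each shARMC5 library lay below the lowest shNT library, with no overlap. The mean was 290 ± 2.90 CPM in shARMC5 and 316 ± 3.81 CPM in shNT (SD, n = 3 each), a ratio of 0.915 and a log2 fold change of -0.13 (SE 0.03, edgeR adjusted P = 0.00587). The gene was covered by 7347 to 11479 reads per library.

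SREBF1, which encodes the precursors of SREBP1, ranged from 134 to 139 CPM in shARMC5 and from 139 to 143 CPM in shNT libraries. The groups overlapped by 1 library each way, and the log2 fold change of -0.05 (SE 0.03) had an adjusted P of 0.381 in edgeR's test. SCAP, the escort of the SREBP precursors and itself a sterol sensor, lay between 77.1 and 78.3 CPM in shARMC5 and between 74.7 and 79.6 CPM in shNT libraries, with a log2 fold change of -0.002 (SE 0.04). The shARMC5 libraries of SCAP fell inside the range of the controls. On the TPM scale (transcripts per 1000000, which also divides by transcript length), SREBF2 stood at 2.93, 3.10 and 2.77 times SCAP in shARMC5 and at 3.19, 3.24 and 3.24 times in shNT libraries, without overlap, whereas the ratios of SREBF2 to SREBF1 and of INSIG1 to INSIG2 overlapped between the groups. The TPM of SREBF2 itself overlapped, at 87.4, 89.8 and 85.4 in shARMC5 and 106, 102 and 89.5 in shNT libraries.

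INSIG1, an anchor of SCAP that is also a known SREBP target, ranged from 101 to 102 CPM in shARMC5 and from 102 to 107 CPM in shNT libraries (log2 fold change -0.04, SE 0.03). INSIG2, the second anchor, ranged from 13.6 to 15.9 CPM in shARMC5 and from 13.6 to 14.4 CPM in shNT libraries (0.07, SE 0.08). Both overlapped between the groups, with adjusted P values of 0.611 and 0.688 from edgeR's test. INSIG2 is the less certain of the pair, because a transcript listed directly after it that matched no annotated gene carried 64 to 153 reads per library, 24.8% of the number on the gene, and was not counted. The protease genes were not called either: MBTPS1 lay between 136 and 142 CPM in shARMC5 and 142 and 147 CPM in shNT libraries (-0.07, SE 0.03, adjusted P = 0.269), and MBTPS2 between 33.1 and 36.3 CPM and 32.2 and 34.8 CPM (0.05, SE 0.06, adjusted P = 0.733). MBTPS2 shares 12.2% of its exon bases with YY2 on the same strand, which was given 102 to 215 reads per library.

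The promoter of SREBF2 is shown because, of the called members with a promoter in the table used, SREBF2 alone holds the letters of the sterol regulatory element searched for here. The sequence, from the RefSeq promoter table for GRCh38.p14, covers chr22:41832855-41833114 on the plus strand, 250 bases before the transcript start and 10 after it. Capitals mark matches on either strand to TCACNCCAC (the letters used for the sterol regulatory element), CCAAT and GGGCGG (the GC box).
SREBF2: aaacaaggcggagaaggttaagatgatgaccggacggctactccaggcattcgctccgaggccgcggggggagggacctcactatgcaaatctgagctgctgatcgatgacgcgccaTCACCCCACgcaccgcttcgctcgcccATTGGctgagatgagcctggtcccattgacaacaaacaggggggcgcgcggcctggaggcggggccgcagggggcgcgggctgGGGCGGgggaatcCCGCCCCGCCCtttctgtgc
It held TCACCCCAC 133 bases before the start, the CCAAT letters on the opposite strand 106 bases before it, and 3 GC boxes, of which the last pair shares 1 base. Of the 30 members 27 matched the table, with 35 promoters of 300 bases, and ACAT2, FDFT1 and SQLE had no entry. TCACNCCAC was in 1.13% of the 35116 promoters of the table, 1.07% of the 15228 promoters of tested genes and, among the members, only in that of SREBF2. The other letters were more frequent everywhere. CCAAT was in 20 of the 35 member promoters (57.1%, beside 34.6% of all promoters and 34.6% of those of tested genes), GGGCGG in 30 of 35 (85.7%, beside 45.0% and 65.1%), and CACGTG, an E-box, in 6 of 35 (17.1%, beside 7.26% and 9.20%; ABCA1, INSIG1, LSS, SC5D and SCAP). A match to letters does not show that a factor binds there.

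Of the 8 genes that lead from acetyl-CoA to the isoprenoid diphosphates, ACAT2 was called lower (12.5%, beside 3.3% of all tested genes). None was called higher, beside 4.44%, and 7 had a negative log2 fold change (87.5%, beside 50.5%). ACAT2, the cytosolic thiolase that joins acetyl-CoA units at the start of the pathway (chromosome 6, 159762045 to 159779112 on the plus strand), was at 162, 163 and 168 CPM in shARMC5 and at 173, 174 and 176 CPM in shNT libraries. The groups did not overlap, and the highest shARMC5 library lay 5.42 CPM below the lowest control. On the TPM scale ACAT2 did overlap, at 112, 114 and 119.7 in shARMC5 and 133, 119.6 and 118.5 in shNT libraries. The log2 fold change was -0.09 (SE 0.03, edgeR adjusted P = 0.0966), the call nearest to the threshold, and it was lost in 10 of 15 alternative analyses, among them leaving out any single library but shARMC5 replicate 3 (adjusted P from 0.133 to 0.249). ACAT2 shares 454 exon bases, 17.2% of its own, with TCP1 on the opposite strand, which carried 19352 to 30361 reads per library, and the library kit does not mark strand.

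HMGCS1, which forms HMG-CoA, ranged from 305 to 317 CPM in shARMC5 and from 315 to 325 CPM in shNT libraries (log2 fold change -0.04, SE 0.03, adjusted P = 0.414). MVK, the first kinase of mevalonate, ranged from 36.0 to 37.6 and from 36.5 to 37.9 CPM (-0.02, SE 0.05), and PMVK, the kinase after it, from 17.4 to 18.7 and from 15.6 to 18.6 CPM (0.06, SE 0.07). These genes overlapped between the groups, and the adjusted P values of the kinases were 0.894 and 0.722. MVD, which turns the product into isopentenyl diphosphate, lay at 48.5 to 52.7 CPM in shARMC5 and at 53.0 to 57.1 CPM in shNT libraries. Its groups did not overlap, but the log2 fold change of -0.10 (SE 0.05) had an adjusted P of 0.287 and was not called.

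IDI1, the isomerase of isopentenyl diphosphate, spanned 146 to 152 CPM in shARMC5 and 146 to 155 CPM in shNT libraries (-0.01, SE 0.03, adjusted P = 0.876). FDPS, which makes farnesyl diphosphate, was at 279, 287 and 290.1 CPM in shARMC5 and at 295, 299 and 297 CPM in shNT libraries. The groups of FDPS stood apart by 4.51 CPM, and the log2 fold change of -0.06 (SE 0.03, edgeR adjusted P = 0.242) was not called. GGPS1, which extends farnesyl to geranylgeranyl diphosphate at the branch away from sterols, spanned 34.6 to 37.0 CPM in shARMC5 and 35.9 to 36.4 CPM in shNT libraries (-0.003, SE 0.05, adjusted P = 0.988). GGPS1 shares 37.3% of its exon bases with an unnamed protein-coding gene model on the same strand, which was given 173 to 826 reads per library, so the division of reads between them is uncertain.

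The squalene and sterol steps held 3 of the 5 called members, 27.3% of their 11 genes beside 3.3% of all tested genes called lower. FDFT1, squalene synthase, the first enzyme committed to sterols, was at 167, 164 and 174 CPM in shARMC5 and at 187, 187 and 186 CPM in shNT libraries. The controls spanned 1.27 CPM and the highest shARMC5 library lay 11.5 CPM below the lowest of them. The log2 fold change was -0.15 (SE 0.03, edgeR adjusted P = 0.00724) with a ratio of means of 0.903. SQLE, squalene epoxidase, the first oxygen-dependent step and a known control point of the pathway, was at 179.8, 177 and 182 CPM in shARMC5 and at 195, 190.0 and 193 CPM in shNT libraries. The groups did not overlap, and the log2 fold change was -0.10 (SE 0.03, adjusted P = 0.0433). The call of SQLE was lost without shARMC5 replicate 2 (adjusted P = 0.162), without shNT replicate 1 (0.165) and without shNT replicate 3 (0.127), with log2 fold changes of -0.09, -0.09 and -0.10.

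TM7SF2 had the largest change among the 29 tested members. It encodes a reductase of the endoplasmic reticulum that saturates the double bond left in the sterol ring by the lanosterol demethylase, a reaction that LBR of the inner nuclear membrane also carries out (chromosome 11, 65111845 to 65116384 on the plus strand). Its level was 35.1, 36.7 and 35.3 CPM in shARMC5 and 44.1, 44.2 and 42.0 CPM in shNT libraries. The highest shARMC5 library was 5.28 CPM below the lowest control. The mean was 35.7 ± 0.868 CPM in shARMC5 and 43.4 ± 1.27 CPM in shNT (SD, n = 3 each), and the log2 fold change was -0.28 (SE 0.05, edgeR adjusted P = 0.00264). TM7SF2 was covered by 891 to 1447 reads per library and was called in all 15 alternative analyses. The exact two-sided permutation test of CPM gave P = 0.1 for each of the 5 called members, the smallest value that 3 libraries against 3 allow.

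The promoter of TM7SF2 is shown as that of the member with the largest change. It covers chr11:65111622-65111881 on the plus strand of GRCh38.p14, 250 bases before the RefSeq transcript start and 10 after it, with capitals for the same motifs.
TM7SF2: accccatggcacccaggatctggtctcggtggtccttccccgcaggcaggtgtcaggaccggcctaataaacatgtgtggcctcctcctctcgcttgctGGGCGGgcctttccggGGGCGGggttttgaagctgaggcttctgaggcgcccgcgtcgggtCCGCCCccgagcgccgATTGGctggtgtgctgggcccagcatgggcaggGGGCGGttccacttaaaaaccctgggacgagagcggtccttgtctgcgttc
It held 4 GC boxes and the CCAAT letters on the opposite strand 74 bases before the start, and neither TCACNCCAC nor CACGTG in the 300 bases searched.

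The remaining 8 enzymes between squalene and cholesterol were not called. LSS, which closes the rings to form lanosterol, spanned 111 to 121 CPM in shARMC5 and 119 to 125 CPM in shNT libraries (log2 fold change -0.07, SE 0.04, adjusted P = 0.340). CYP51A1, the lanosterol demethylase, was at 249, 252 and 259.1 CPM in shARMC5 and at 259.4, 260.2 and 261 CPM in shNT libraries. Its groups did not overlap, but the nearest libraries differed by 0.261 CPM, and the log2 fold change was -0.04 (SE 0.03, adjusted P = 0.483). SC5D, a sterol desaturase, likewise stood apart without a call, at 173 to 177 CPM against 180.0 to 184 CPM (-0.05, SE 0.03, adjusted P = 0.331).

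MSMO1, NSDHL and HSD17B7 act in turn in the removal of methyl groups from the sterol ring, and all overlapped between the groups. MSMO1 spanned 155 to 163 CPM in shARMC5 and 154 to 162 CPM in shNT libraries (0.01, SE 0.03), NSDHL 56.1 to 58.6 and 55.8 to 61.1 CPM (-0.04, SE 0.04), and HSD17B7 31.9 to 34.3 and 31.3 to 36.0 CPM (-0.02, SE 0.06). Their adjusted P values were 0.927, 0.663 and 0.895. A close copy of HSD17B7, HSD17B7P2, was given 69 to 117 reads per library, 9.68% of the number on the gene, so its count is less certain than the others. EBP, an isomerase, spanned 114 to 119 CPM in shARMC5 and 112 to 114 CPM in shNT libraries (0.03, SE 0.03), and DHCR7, the reductase of the last step of 1 branch, 184 to 201 and 188 to 200.02 CPM (-0.03, SE 0.03). Neither was called, with adjusted P values of 0.700 and 0.742 from edgeR's test.

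**Figure D2:**
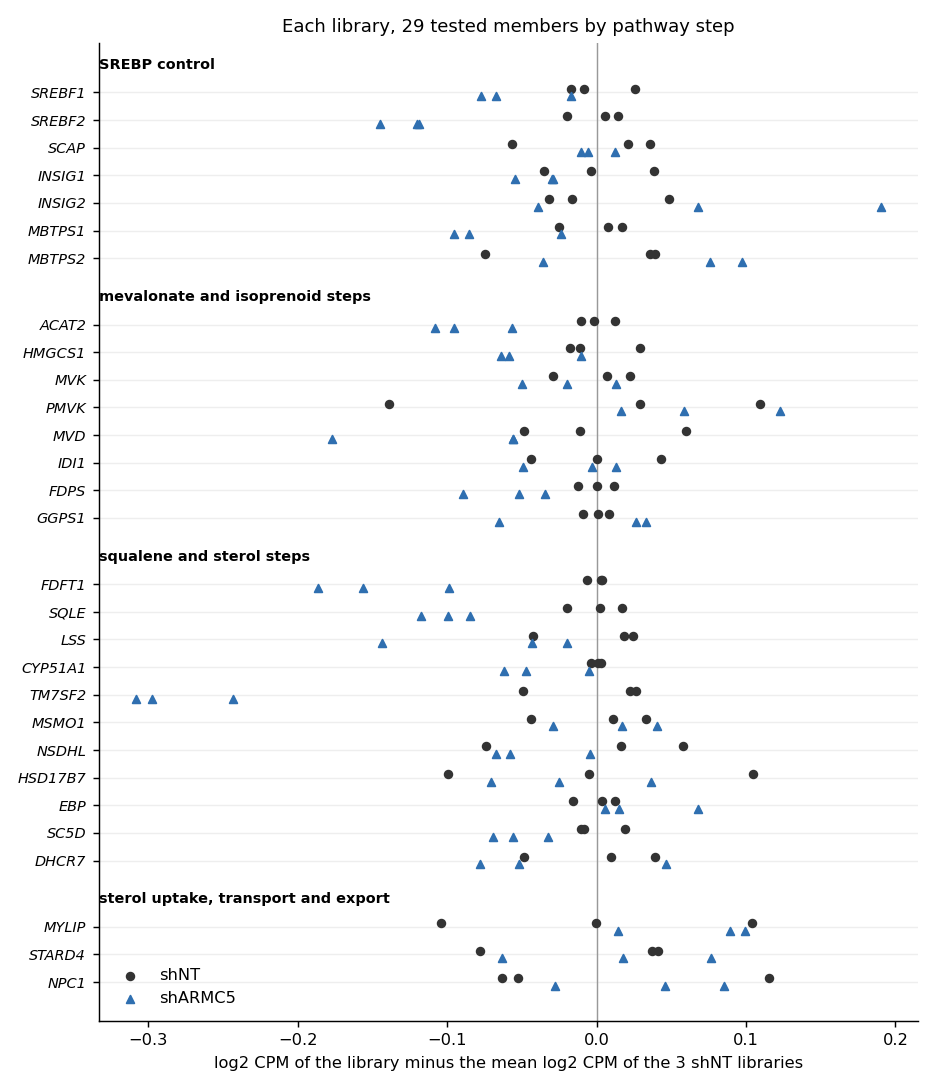
Log2 CPM of each library minus the mean log2 CPM of the 3 shNT libraries (x axis) for the 29 tested members, grouped by pathway step, with shNT as black circles and shARMC5 as blue triangles. The triangles lie left of all circles for 9 genes, among them TM7SF2, FDFT1 and SREBF2, and right of all circles for 0.

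The median of these differences over the 29 members was -0.03, -0.05 and -0.03 in the shARMC5 libraries and 0.02, 0.001 and -0.01 in the shNT libraries. The groups did not overlap. The shNT libraries make up the mean they are set against, which holds their values near 0, so this restates the fold changes above. Over all tested genes the same median stayed between -0.003 and 0.006 in the 6 libraries. Between 20 and 21 of the 29 members lay below the control mean in each shARMC5 library, and 9, 14 and 16 of them in the shNT libraries.

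None of the transport genes was called. MYLIP, a ubiquitin ligase gene that is a known target of the oxysterol receptors, spanned 20.03 to 21.2 CPM in shARMC5 and 18.5 to 21.3 CPM in shNT libraries (log2 fold change 0.06, SE 0.07, adjusted P = 0.693). STARD4, a cytosolic sterol carrier and known SREBP target, spanned 58.5 to 64.4 and 57.9 to 62.9 CPM (0.01, SE 0.05, adjusted P = 0.939). NPC1, which moves cholesterol out of lysosomes, spanned 49.6 to 53.7 and 48.4 to 54.8 CPM (0.03, SE 0.05, adjusted P = 0.803). These 3 genes overlapped between the groups. ABCA1, which exports cholesterol to apolipoproteins, had 5, 4 and 0 reads in shARMC5 and 7, 6 and 4 reads in shNT libraries. It was not tested, since it did not reach 10 counts in 3 or more libraries.

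Levels can be compared between genes on the TPM scale. FDPS was highest, at 377 ± 2.70 TPM in shARMC5 and 396 ± 12.8 TPM in shNT (SD, n = 3 each), followed in shNT by HMGCS1 at 177 ± 4.63, EBP at 166 ± 2.90 and FDFT1 at 159 ± 7.73 TPM. EBP and FDFT1 are neighbours in that order that lie within their spread, and so are DHCR7 at 140.3 ± 10.2 and CYP51A1 at 140.0 ± 4.04 TPM. The other enzymes lay between 28.1 (PMVK) and 131 TPM (IDI1). SREBF2 at 99.4 ± 8.82 TPM stood above SREBF1 at 69.2 ± 6.16 and INSIG1 at 67.8 ± 1.64 TPM, and MBTPS2, INSIG2 and MYLIP at 12.8, 11.1 and 9.88 TPM were the lowest of the tested members. The summed TPM of the 19 enzymes was 2047, 2026 and 2028 in shARMC5 and 2230, 2137 and 2068 in shNT libraries, a ratio of means of 0.948. These sums did not overlap between the groups.

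**Figure D3:**
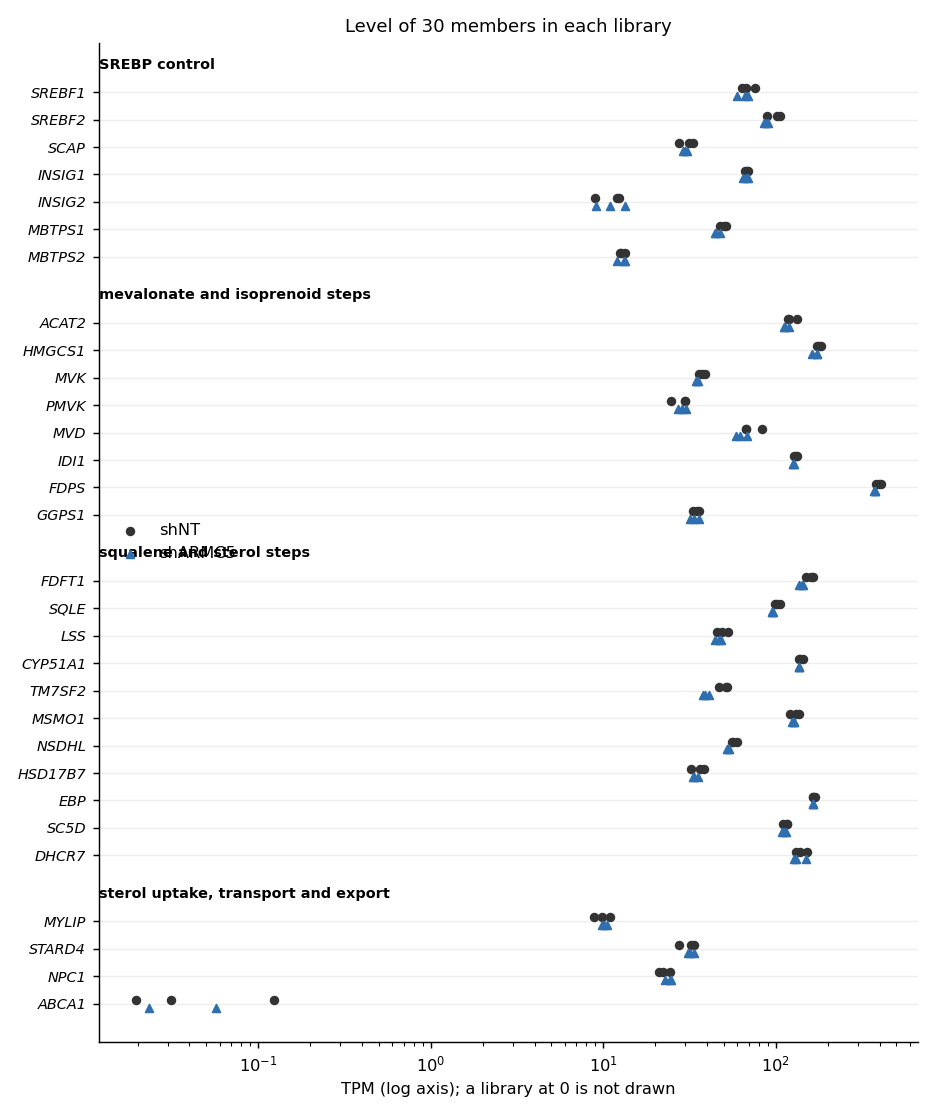
TPM (x axis, log scale) of the 30 members in each of the 3 shNT (black circles) and 3 shARMC5 (blue triangles) libraries, grouped by pathway step. FDPS is highest and ABCA1, with at most 7 reads in a library, lies far below the rest.

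Part of the result depends on whether transcript length is taken into account. Salmon's effective length averaged over a gene's transcripts differed between the groups by a ratio from 0.951 (NPC1) to 1.06 (MVD) among the tested members, and was 1.02 for SREBF2, 1.01 for FDFT1, 0.982 for SQLE and 1.03 for TM7SF2. With this length as an offset, edgeR called 1 member lower, TM7SF2 (log2 fold change -0.33, adjusted P = 0.0501), beside 0.692% of all tested genes. The values of SREBF2 and FDFT1 in that fit were no smaller, at -0.16 each, with adjusted P values of 0.168 and 0.112. DESeq2 with the offset, the kind of test named in the study's methods, called SREBF2 (-0.16, adjusted P = 0.0264), FDFT1 (-0.16, 0.0132) and TM7SF2 (-0.33, 8.65e-04), beside 1.95% of all tested genes called lower. SQLE moved from -0.10 to -0.08 under both offsets, with adjusted P values of 0.386 in edgeR and 0.382 in DESeq2. ACAT2 stayed at -0.09 under both and lost its call, with adjusted P values of 0.486 in edgeR and 0.497 in DESeq2.

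**Figure D4:**
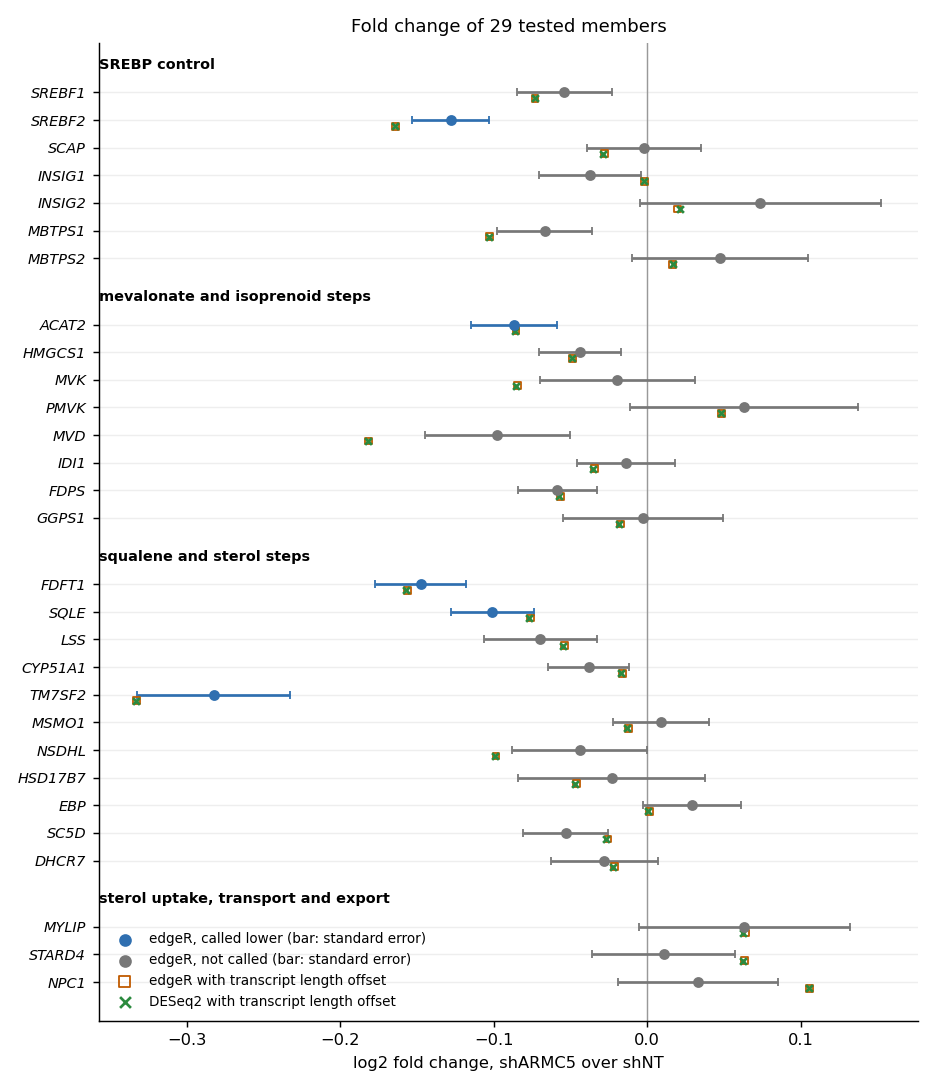
Log2 fold change of shARMC5 over shNT (x axis) for the 29 tested members by pathway step, from edgeR (circles with standard error, blue where called), edgeR with a transcript length offset (squares) and DESeq2 with that offset (crosses). TM7SF2 lies farthest from 0 in each fit, at -0.28, -0.33 and -0.33.

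Most of the called genes are read through a single main transcript. SREBF2-201 held 97.5% of the reads of SREBF2 in shARMC5 and 97.1% in shNT, and SQLE-201 98.6% and 99.4% of those of SQLE. ACAT2-201 held 75.3% and 74.0%, FDFT1-201 72.0% and 69.7% (with FDFT1-202 at 18.2% and 20.1%), and TM7SF2-201 64.6% and 59.9% of their genes' reads. Of 161 member transcripts tested on their own edgeR called 0, with 7 at an unadjusted P under 0.05 (4.35%, beside 4.80% of all transcripts) and the smallest adjusted P at 0.310, and of all 51892 transcripts it called 4 (0.00771%). DESeq2 called 1396 of all transcripts (2.69%) and 3 of the 161 member transcripts. These were SREBF2-201 (log2 fold change -0.12, adjusted P = 3.62e-06), SQLE-201 (-0.11, adjusted P = 5.20e-04) and CYP51A1-203 (0.30, adjusted P = 0.00984), the last with a mean of 8.996% of its gene's reads in shARMC5 and 7.16% in shNT. TM7SF2-205, named after its values were seen, held 9.57% to 11.5% of the reads of TM7SF2 in shARMC5 and 11.0% to 19.0% in shNT libraries, so the groups overlapped. The reads that transcripts share were divided by salmon, and the error of that division is not in these tests.

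Beyond the 30 genes, 6 lists of related genes were read from the same fit, 73 genes of which 65 were tested. Of these 6 were called lower (9.23%, beside 3.3% of all tested genes) and 5 higher (7.69%, beside 4.44%). Their median log2 fold change was -0.01. The fatty acid targets of SREBP were called lower in 3 of 12 tested genes (25%, beside 3.3% of all tested genes) and higher in 0 (beside 4.44%). FADS2, a fatty acid desaturase, fell from 20.8 ± 1.21 to 5.95 ± 0.323 CPM (log2 fold change -1.80, adjusted P = 1.88e-09), FASN, fatty acid synthase, had -0.24 (adjusted P = 0.0343) and SCD, the stearoyl-CoA desaturase, -0.14 (adjusted P = 0.00600). FADS1, another desaturase of that list, named after its values were seen, was not called, with a log2 fold change of 0.67 (SE 0.25, 30 to 85 reads per library, edgeR adjusted P = 0.163) and every shARMC5 library above every shNT library. The median of that list was -0.06, beside -0.04 for the 29 members. Without shARMC5 replicate 2 or shNT replicate 2 FASN was not called (adjusted P = 0.130 and 0.110).

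Among 11 genes of turnover and control of the sterol sensors MARCHF6 was called lower (9.09%, beside 3.3% of all tested genes). None was called higher, beside 4.44%. MARCHF6, a ubiquitin ligase of the endoplasmic reticulum that acts on SQLE, was at -0.11 (adjusted P = 0.0711 from edgeR's test). The call of MARCHF6 was lost without shARMC5 replicate 1 or 2 or without shNT replicate 1 or 3 (adjusted P from 0.174 to 0.248). With the transcript length offset its log2 fold change was -0.03, with an adjusted P of 0.860 in edgeR and 0.904 in DESeq2. Of 9 tested accessory enzymes ERG28, a scaffold of the sterol demethylation enzymes, was lower (-0.15, edgeR adjusted P = 0.0177, and 0.163 with the offset). That is 11.1% of the list, beside 3.3% of all tested genes. The list leaned upward, with a median of 0.06 and 33.3% negative log2 fold changes, beside 50.5%. Every shARMC5 library lay above every shNT library in 4 of the 9, beside 12.5% of all tested genes, and below in 1, beside 10.9%. The isoprenoid branch, with 13 tested genes of dolichol, ubiquinone and prenylation, had 0 calls each way by edgeR and by DESeq2. All tested genes were called lower in 3.3% and higher in 4.44% by edgeR, and in 2.72% and 3.66% by DESeq2. At an unadjusted P under 0.05 edgeR found 2 genes of the branch, 15.4% beside 18.1% of all tested genes. Of 5 tested genes of the oxysterol receptors and their targets ABCG1, a sterol exporter, was called lower (20%, beside 3.3% of all tested genes). ABCG1 was at -1.01 (edgeR adjusted P = 0.0633) on 17 to 50 reads per library. Its call was lost in 8 of 15 alternatives, among them leaving out any single library but shNT replicate 3.

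Sterol transport and esterification was the list with most calls upward by edgeR, 4 of 15 tested genes or 26.7%, beside 4.44% of all tested genes. It had 0 downward by edgeR, beside 3.3%, and a median of 0.03. SCARB1, a receptor for high-density lipoprotein, was higher at 0.20 (adjusted P = 0.00518), NPC2, the lysosomal partner of NPC1, at 0.20 (adjusted P = 0.00141) and NCEH1, a cholesteryl ester hydrolase, at 0.18 (adjusted P = 0.00778). SOAT1, which esterifies cholesterol and was named after its values were seen, was at 0.17 (adjusted P = 0.0545), and was not called without shARMC5 replicate 2 or 3 or without shNT replicate 1 or 2 (adjusted P from 0.112 to 0.163). In each of these 4 genes every shARMC5 library lay above every shNT library. With the transcript length offset NPC2 alone of the 4 was called in edgeR (adjusted P of 0.430 for SCARB1, 0.117 for NCEH1 and 0.507 for SOAT1). DESeq2 with the offset called NPC2 and NCEH1 higher, with adjusted P values of 0.311 for SCARB1 and 0.522 for SOAT1. That fit also called STARD3 of this list lower (-0.22, adjusted P = 0.0920). STARD3, named after its values were seen, was at 0.03 in edgeR without the offset (adjusted P = 0.794). The difference between this list and the members was not tested.

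**Figure D5:**
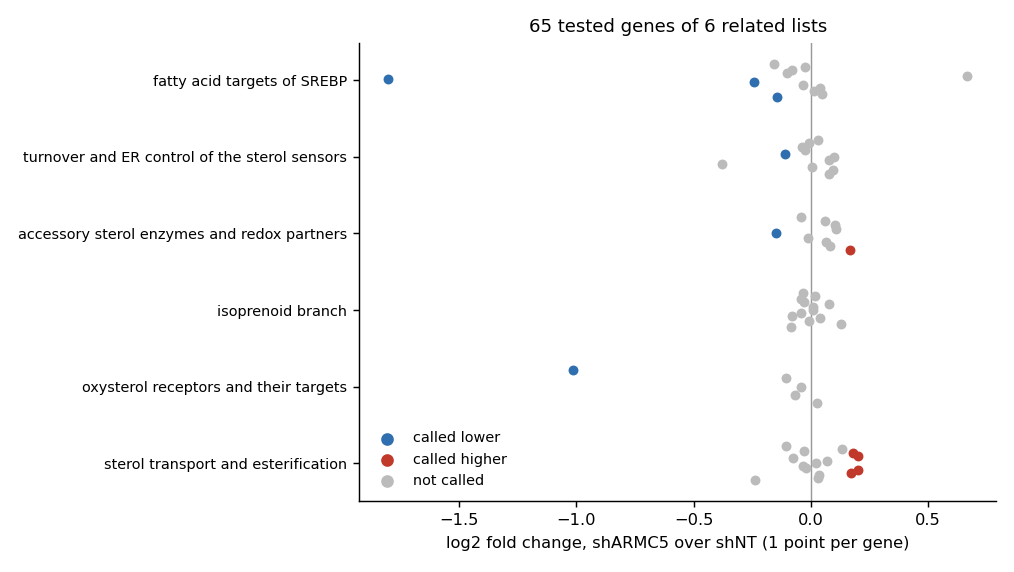
Log2 fold change of shARMC5 over shNT (x axis) of the 65 tested genes of 6 related lists, 1 point per gene, blue where called lower, red where called higher and grey where not called. FADS2 at -1.80 and ABCG1 at -1.01 lie farthest to the left, FADS1, which was not called, lies farthest to the right at 0.67, and the 4 genes called higher in the transport list lie between 0.17 and 0.20.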

How the data were processed

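Polyadenylated RNA of 3 shARMC5 and 3 shNT libraries was sequenced. Per the labels, reads were trimmed with cutadapt 4.2 and quantified with Salmon 1.9.0 (with its GC correction, as the study's methods state), and the authors deposited an estimated count of reads, TPM, length and effective length for each transcript. The transcript set is not given in the sources used here. Of 177456 transcripts 165533 matched GENCODE 44 by identifier without version, and the unmatched ones, with 2.96% to 3.04% of the reads, were left out.

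These estimates were added up over each gene's transcripts, rounded, and kept for genes that reached 10 counts in 3 or more libraries. Groups were compared by edgeR 4.0.16 in R 4.3.3 with its quasi-likelihood test (robust fit, TMM factors from 0.992 to 1.02, condition as the only term), two-sided, with Benjamini-Hochberg adjustment over all genes and a threshold of 0.1. The fit was tested on simulated data. Standard errors are the absolute log2 fold change divided by the square root of F. DESeq2 1.42.0, length offsets, filters, a replicate term and each library left out were alternatives. Levels between genes are sums of the TPM values that the authors deposited. The reads behind a tested member ranged from 386 (INSIG2) to 12486 (HMGCS1) per library, which sets its counting error.

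The genes and the related lists were chosen with earlier results of these data known. The text names ARMC5, all members, at most 3 called genes each way per related list by size of change, member transcripts that were called or, for the called members, held at least 20% of their gene's reads in a group (and TM7SF2-205 besides), and promoters of called members that have an entry. A further called gene of a related list and 1 marker list are not reported here.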

Additional observations from a re-analysis of the deposited data

How the results depend on the processing

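ARMC5 and TM7SF2 were called lower in every alternative. Genes called lower numbered 454 and genes called higher 610. With a transcript length offset these became 95 and 139 in edgeR and 268 and 300 in DESeq2, with genes of at least 1 count 745 were lower, and at an adjusted P under 0.05 261 were lower. Leaving out 1 library gave 185 to 460 lower and 351 to 625 higher. Members called lower went from 5 to 1 with the offset in edgeR, to 3 with the offset in DESeq2 and to 3 to 5 without 1 library, being 3 without shARMC5 replicate 2, shNT replicate 1 or shNT replicate 3. Related genes went from 6 lower and 5 higher to 3 and 2 with the offset in edgeR. With the offset in DESeq2 3 were higher, and STARD3 was among those lower. Without 1 library 3 to 5 were lower and 4 to 7 higher. DESeq2 called 3 member transcripts where edgeR called 0.

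With a replicate block, a term for the replicate number, 794 genes were lower and 972 higher, 6 members were lower (FDPS added, adjusted P = 0.0988) and 9 related genes were higher. Whether the numbers pair the libraries is not settled by the correlations of their deviations, which were small and mixed. For replicates 1, 2 and 3 they were -0.0223, 0.0154 and 0.109 between same-numbered libraries. The best correlation with another number was 0.107, 0.0101 and 0.0145.

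Of 464 alternative values of members 427 kept their direction and their side of the threshold, 18 lost a call, 1 gained one and 18 changed sign. The sign changes all fell on members that were not called. MSMO1 became -0.00558 with library size only, -0.0122 with the offset in edgeR and -0.0132 in DESeq2, and STARD4 -0.00366 with library size only. Without 1 library, the values spanned -0.0294 to 0.0166 for SCAP, -0.00188 to 0.119 for PMVK, -0.0347 to 0.00814 for IDI1, -0.0218 to 0.0295 for GGPS1, -0.0126 to 0.0289 for MSMO1, -0.0708 to 0.0311 for HSD17B7 and -0.0263 to 0.0482 for STARD4. The causes were not tested, beyond the smaller number of libraries in those that leave one out. Depth limits ABCA1, with at most 7 reads, and ABCG1, with at most 50.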
